A study of Arabidopsis thaliana with 9 samples.

Results

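The plastid genes psbE, psbF, psbL and psbJ form a transcription unit in which they lie side by side on the plastid chromosome, in the order psbJ, psbL, psbF, psbE along the TAIR10.1 annotation. They were chosen by name, as the 4 genes of this unit, after psbE and psbL had been seen to be lower in C24 than in Col in these arrays, so their levels are described below without a test. Each gene was measured by 1 probe set, and the 4 genes are among 69 plastid-encoded and 13286 genes in all that a probe set named. Their locus tags are ArthCp039 (psbE), ArthCp038 (psbF), ArthCp037 (psbL) and ArthCp036 (psbJ).

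psbE and psbF encode the alpha and beta subunits of cytochrome b559, which span the thylakoid membrane and hold a haem between them. Cytochrome b559 belongs to the core of photosystem II, the complex that oxidises water, and photosystem II does not assemble without it. psbL and psbJ encode small subunits beside it, each with a membrane helix, known for their part in electron flow on the acceptor side. In plants the plastid genes of this unit are transcribed together, and plastids in Arabidopsis normally come from the seed parent.

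The material was whole seedlings of Arabidopsis thaliana without roots at 10 DAS (the labels' unit), grown at 22 degrees under a photoperiod of 16 h and 8 h. The groups were the F1 hybrid of Col and C24, the accession C24 and the accession Col, with 3 arrays each and 9 in all. The labels call the replicates biological, and they name neither the mother of the F1 nor the number of plants in a sample, so p-values measure the spread between these samples. Values are 1-colour Affymetrix probe-set signals on a linear scale after quantile normalization, and the number of arrays limits their precision. In such whole-seedling RNA, fewer plastid-bearing cells and less plastid RNA per cell cannot be told apart. How well the probes match the C24 plastid sequence was not examined here.

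F1 replicate 2 stood apart from the other 8 arrays in its plastid signals. The median signal of 58 other plastid-encoded genes was 311.4, 32.1 and 395.8 in F1 replicates 1, 2 and 3, against 240.0, 287.0 and 185.0 in C24 and 388.2, 465.9 and 387.1 in Col. In 56 of these 58 genes F1 replicate 2 was the lowest F1 array, as it was in 26.8% of all tested probe sets. Values that rest on F1 are therefore also given without it.

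All 4 genes were lower in C24 than in Col, by 2.36-fold to 3.45-fold. With all arrays the F1 means lay closer to the C24 than to the Col means, although without F1 replicate 2 psbL was about as far from either parent in log2. psbE had signals of 650.9, 422.0 and 913.7 in F1 and 709.5, 645.0 and 429.5 in C24, against 1566, 2226 and 1444 in Col. Every Col array was above every F1 and C24 array, and the F1 and C24 arrays overlapped. The group means of psbE were 662.2 ± 246.1 in F1, 594.7 ± 146.6 in C24 and 1745 ± 420 in Col (SD, n = 3). The log2 difference from Col was -1.44 ± 0.29 in F1 and -1.56 ± 0.29 in C24 (SE of the fit over all arrays).

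psbF, the partner of psbE in cytochrome b559, had signals of 1282, 902 and 1638 in F1 and 1228, 1312 and 809 in C24, against 2080, 3198 and 2575 in Col. Again all Col arrays were above all others, with no gap between F1 and C24. Its means were 1274 ± 368 in F1, 1116 ± 269 in C24 and 2618 ± 560 in Col, and the log2 difference from Col was -1.06 ± 0.25 in F1 and -1.24 ± 0.25 in C24.

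psbL was the gene with the closest replicates. Its signals were 170.5, 119.0 and 179.7 in F1 and 94.36, 89.85 and 94.98 in C24, against 320.6, 336.5 and 306.3 in Col. The 3 groups did not overlap, with F1 between the parents on every array. The means were 156.4 ± 32.7 in F1, 93.1 ± 2.8 in C24 and 321.2 ± 15.1 in Col. The log2 difference from Col was -1.06 ± 0.17 in F1 and -1.79 ± 0.17 in C24, and F1 was 0.73 ± 0.17 above C24.

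psbJ, the last gene of the unit, had signals of 441.6, 427.3 and 857.0 in F1 and 449.3, 496.5 and 605.6 in C24, against 1267, 1904 and 813 in Col. All C24 arrays were below all Col arrays, whereas F1 replicate 3 was above Col replicate 3. The means were 575.3 ± 244.1 in F1, 517.1 ± 80.2 in C24 and 1328 ± 548 in Col, with log2 differences from Col of -1.20 ± 0.33 in F1 and -1.29 ± 0.33 in C24.

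**Figure D1:**
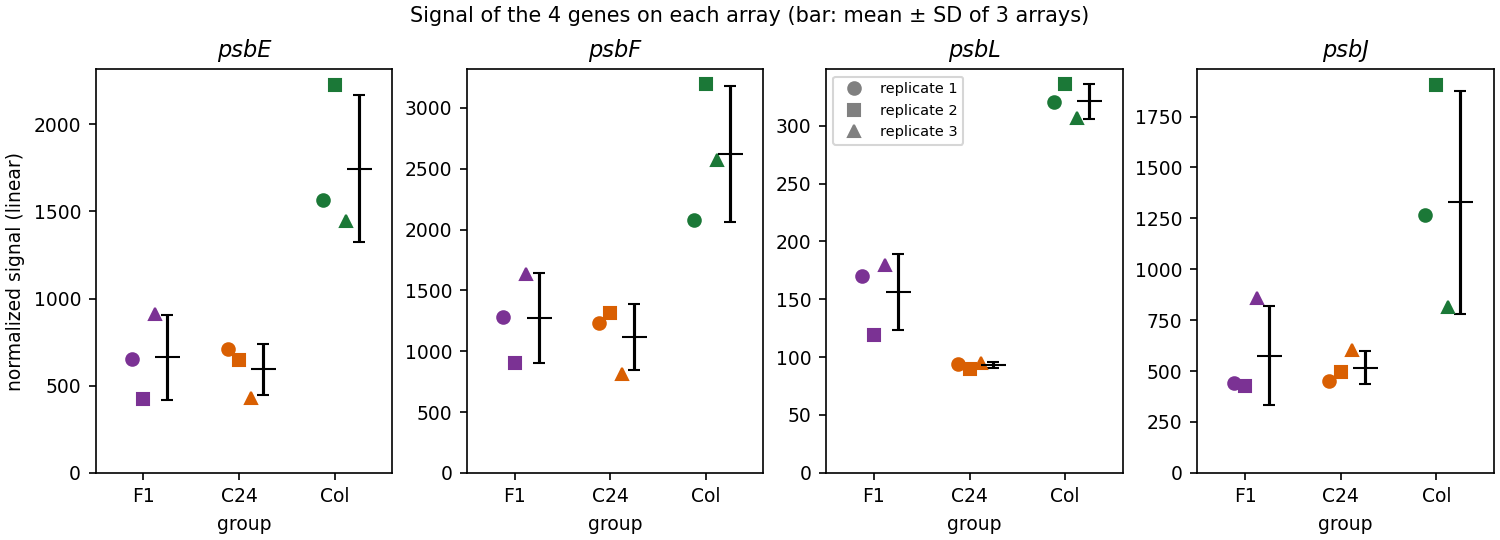
Normalized signal (linear axis from 0) of psbE, psbF, psbL and psbJ on each array, by group, with the mean and SD of 3 arrays beside the points and the replicate number as the marker. Col lies above C24 without overlap in each panel, F1 overlaps C24 for psbE, psbF and psbJ, and F1 lies between the parents for psbL.

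In all, 4 of the 4 genes were lower on every C24 array than on every Col array, as were 12.3% of all tested probe sets. Of the 58 other tested plastid-encoded genes, 23 were lower and 3 were higher on every C24 array than on every Col array. Against Col, 3 of the 4 were lower on every F1 array (background 7.6%), and against C24, 1 of the 4, psbL, was higher on every F1 array (background 8.94%). The first of these contrasts was used to choose the genes, and the other two share its Col or C24 arrays. The median log2 difference of the 4 genes was -1.42 for C24 minus Col and -1.13 for F1 minus Col, where the median over 15922 tested probe sets was 0.03 and -0.00. Over the 58 other plastid-encoded genes it was -0.49 and -0.95. With all arrays, 52 of these 58 were below 0 for F1 minus Col, and 17 were below each of the 4 genes. Without F1 replicate 2, only petA (-1.78), cemA (-2.01) and ycf4 (-1.36) were below psbE (-1.15), the lowest of the 4. Without F1 replicate 2 the median F1 minus Col was -0.13 for the 58 and -0.95 for the 4. For F1 minus C24 the median of the 4 was 0.15, against -0.03 over all tested probe sets, and its sign was not stable. It was -0.06 with the arrays set to a common median and -0.09 without F1 replicate 3, and 0.41 without F1 replicate 2.

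Leaving out F1 replicate 2 brought F1 nearer to Col but kept all 4 genes below it. The log2 differences F1 minus Col were then -1.15 ± 0.27 for psbE, -0.83 ± 0.24 for psbF, -0.87 ± 0.15 for psbL and -1.02 ± 0.37 for psbJ. For F1 minus C24 they were 0.41 ± 0.27 for psbE, 0.41 ± 0.24 for psbF, 0.91 ± 0.15 for psbL and 0.26 ± 0.37 for psbJ.

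The place of F1 between the parents differed among the genes. On the linear scale, with 0 the Col mean and 1 the C24 mean, F1 was at 0.94 for psbE, 0.89 for psbF, 0.93 for psbJ and 0.72 for psbL. Without F1 replicate 2 these positions were 0.84, 0.77, 0.84 and 0.64. With all arrays, F1 was 0.57 times the arithmetic mid-parent value for psbE, 0.68 times for psbF, 0.62 times for psbJ and 0.76 times for psbL. Without F1 replicate 2 the F1 mean was nearer to the mid-parent value but still below it. It was 782.3 against 1170 for psbE, 1460 against 1867 for psbF, 649.3 against 922.6 for psbJ and 175.1 against 207.1 for psbL. F1 replicate 3 alone gave positions of 0.72, 0.65, 0.58 and 0.62 for psbE, psbF, psbJ and psbL. The order of the 3 F1 arrays was the same for all 4 genes, with replicate 3 highest and replicate 2 lowest. Of the 58 other plastid genes, replicate 3 was the highest F1 array in 41 and replicate 2 the lowest in 56.

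Among the Col arrays, replicate 2 had the highest signal of each of the 4 genes, and of 34 of the 58 other plastid genes. Among the C24 arrays the order differed by gene. Replicate 3 had the lowest psbE and psbF signals but the highest psbJ signal, and psbL was nearly level. After each gene was centred on its own mean log2 signal, psbE and psbF were the closest pair over the 9 arrays, with a root mean square difference of 0.21, and psbL and psbJ the farthest, with 0.44. The SD of log2 signal within groups was 0.19 for psbL, the lowest of the 4, and 0.50 for psbJ, the highest.

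The 25S ribosomal RNA control probe set also varied between the arrays. Its deposited signal was 1380, 41.4 and 1807 in F1 and 90.7, 217.1 and 44.9 in C24, against 503.0, 2464 and 1426 in Col. It was highest where the 4 genes were highest among the F1 and the Col arrays, and in C24 it was below every Col array and below F1 replicates 1 and 3. The 3' over 5' ratio of the GAPDH control was 0.80 to 1.12 in F1, 0.85 to 1.79 in C24 and 0.86 to 2.01 in Col, and that of ubiquitin 2.34 to 4.10, 3.29 to 8.22 and 2.34 to 5.01. That of actin was 6.40 to 10.4 in F1, 1.28 to 3.61 in C24 and 3.33 to 23.7 in Col. The part of the 25S signal and of these ratios in the differences was not tested.

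**Figure D2:**
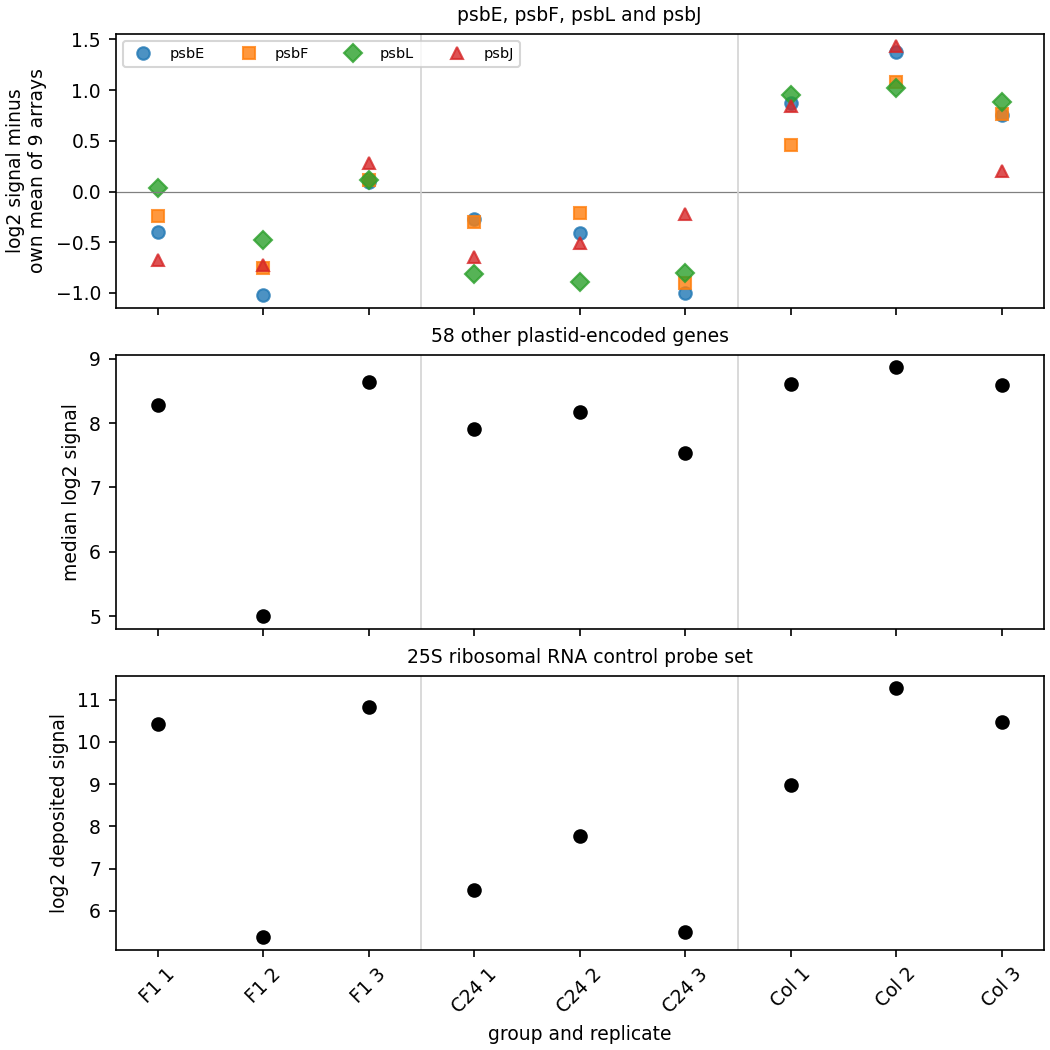
For each array, by group and replicate, the log2 signal of psbE, psbF, psbL and psbJ minus each gene's mean over the 9 arrays (top), the median log2 signal of the 58 other tested plastid-encoded genes (middle), and the log2 deposited signal of the 25S ribosomal RNA control (bottom). F1 replicate 2 is far below every other array in the middle panel, whereas in the top panel psbF lies within the C24 arrays, psbL above them, and psbE and psbJ just below the lowest C24 array.

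The 4 genes were less reduced in F1 replicate 2 than most other plastid genes were. Their signal in F1 replicate 3 was 1.51 to 2.17 times that in replicate 2, with a median of 1.91. For the 58 other plastid-encoded genes the median ratio was 5.95, with a range of 0.85 to 101.3. Scaled to the median of these 58 genes on the same array, the mean log2 level of the 4 genes was 0.69, 3.54 and 0.81 in F1 replicates 1 to 3 and 0.87, 0.62 and 1.02 in C24, against 1.47, 1.65 and 1.34 in Col. On this relative scale, which was chosen after the data had been seen, all Col arrays were above all C24 arrays and above F1 replicates 1 and 3, and F1 replicate 2 was above every other array. The median difference of the 4 genes was then -0.60 for C24 minus Col. For F1 minus Col it was 0.25, and -0.72 without F1 replicate 2.

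Among the other plastid genes many were as far below Col in C24 as the 4 genes, most of them with wider spread. Of 58 tested, 49 had a log2 difference below 0 for C24 minus Col, with a median of -0.49, and 13 were lower than psbF, the least reduced of the 4 in C24. Their SD within groups had a median of 0.98 in log2, against 0.41 for the 4 genes and 0.25 for all tested probe sets, and 46 of the 58 had a larger SD than any of the 4. This SD includes F1 replicate 2, which does not enter C24 minus Col. Without that array the SE of C24 minus Col was 0.07 (atpB) to 1.08 (psaA) in the 58. In the 4 genes it was then 0.13 to 0.33. Of the 13 genes lower than psbF, petA (0.20), cemA (0.25) and rpl36 (0.29) were then within that range. The others of these 13 were above it. In the limma fit 1 of the 58 was lower in C24 (background 4.91%) and 2 were higher (background 3.56%), with 12 at an unadjusted p under 0.05. Without F1 replicate 2, 11 were lower (background 4.31%) and 3 were higher (background 2.77%). A block for the replicate number gave 2 lower and 3 higher. The genes added were rpl14, lower in C24 (log2 difference -1.06, adjusted p = 0.0402 with the block and 0.117 without it), and rps2, higher in C24 (1.11, adjusted p = 0.0342 with the block and 0.0797 without it), both for ribosomal proteins.

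**Figure D3:**
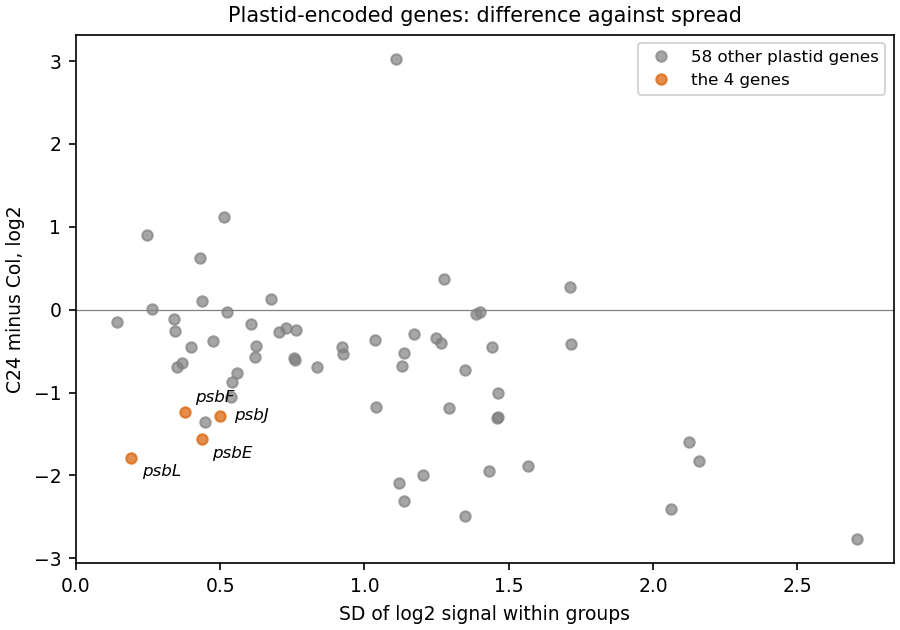
Each point is a plastid-encoded gene, with the SD of its log2 signal within groups on the horizontal axis and its log2 difference C24 minus Col on the vertical axis, over all 9 arrays. The 4 genes of the unit lie at -1.79 to -1.24 with an SD of 0.19 to 0.50, to the left of most plastid genes with a difference of that size. The SD includes F1 replicate 2, which does not enter the difference.

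The gene that was lower in C24 with all arrays was rpl36, which encodes a protein of the large plastid ribosomal subunit, at 496.1 ± 192.2 in C24 against 1235 ± 309 in Col (log2 difference -1.36 ± 0.30, limma adjusted p = 0.0201). Leaving out Col replicate 1, Col replicate 2, C24 replicate 2 or C24 replicate 3 ended the call, with adjusted p up to 0.0833. rps18, for a protein of the small subunit, was higher at 164.4 ± 16.0 in C24 against 89.55 ± 24.04 in Col (0.91 ± 0.20, adjusted p = 0.0192), and that call ended on leaving out Col replicate 1, Col replicate 3, C24 replicate 2 or C24 replicate 3, with adjusted p up to 0.0649. rpoB, for the beta subunit of the plastid-encoded RNA polymerase, was at 52.2 ± 28.2 in C24 against 5.74 ± 0.64 in Col, below the filter level of 11.1 (adjusted p = 0.0301, and up to 0.103 without any Col array or without C24 replicate 1 or 2). In F1, rps18 was also higher than in Col, at 207.1 ± 21.0 (adjusted p = 0.0259), the 1 call of the 58 against Col, with 0 lower (background 0.408% higher and 0.1% lower) and 12 at an unadjusted p under 0.05. Leaving out any array but Col replicate 2 or C24 replicate 3 ended that call, with adjusted p up to 0.115. For F1 minus C24, the limma fit called 0 of the 58 (background 1.7% higher and 0.377% lower), and the unadjusted p was under 0.05 for 3.

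The protein-coding neighbours of the unit on the plastid chromosome were 3 genes on each side, and no test compared the sides. On the psbJ side lie petA, the cytochrome f gene, cemA, an envelope membrane protein gene, and ycf4, a photosystem I assembly factor gene. petA had signals of 459.9, 24.3 and 501.4 in F1 and 563.1, 543.2 and 947.4 in C24, against 1688, 1651 and 1595 in Col. cemA had 147.6, 12.9 and 140.4 in F1 and 206.5, 122.5 and 122.0 in C24, against 742.9, 473.4 and 559.0 in Col. ycf4 had 69.8, 9.44 and 57.3 in F1 and 51.8, 49.5 and 13.5 in C24, against 206, 125 and 164 in Col. Like psbE, psbF and psbL, all 3 genes were lower on every F1 and C24 array than on any Col array.

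With all arrays, none of the 3 passed in limma for C24 minus Col, with petA at -1.31 ± 0.93 (adjusted p = 0.478) and cemA at -1.998 ± 0.772 (adjusted p = 0.16). ycf4 was at -2.31 ± 0.73 (adjusted p = 0.0884). Without F1 replicate 2 all 3 passed, petA at -1.31 ± 0.20 (adjusted p = 0.00479), cemA at -1.996 ± 0.245 (adjusted p = 0.00142) and ycf4 at -2.31 ± 0.47 (adjusted p = 0.0198). Against Col, F1 without that array was lower for petA (log2 difference -1.78 ± 0.23, adjusted p = 0.0205) and for cemA (-2.01 ± 0.27, adjusted p = 0.0242), where 0.0502% of all probe sets were called lower. These were the 2 plastid genes called lower, and 1, rpoB, was called higher (3.25 ± 0.44, limma adjusted p = 0.0242, background 0.188%). No F1 array enters the difference C24 minus Col, so the change lies in the standard errors, which the fit takes from all groups. With replicate number as a block over all arrays, cemA was lower in F1 than in Col (-3.18, adjusted p = 0.0487, against 0.159 without the block).

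On the psbE side lie petL and petG, genes of small cytochrome b6f subunits, and psaJ, a photosystem I subunit gene. Their log2 differences for C24 minus Col were 0.27 ± 1.09, -0.40 ± 0.82 and -0.22 ± 0.47, and 0 of the 3 passed in limma in any comparison, with or without F1 replicate 2. psaJ had signals of 901.7, 377.5 and 1017 in F1 and 480.9, 548.6 and 187.2 in C24, against 382.6, 634.6 and 320.8 in Col, with all groups overlapping.

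**Figure D4:**
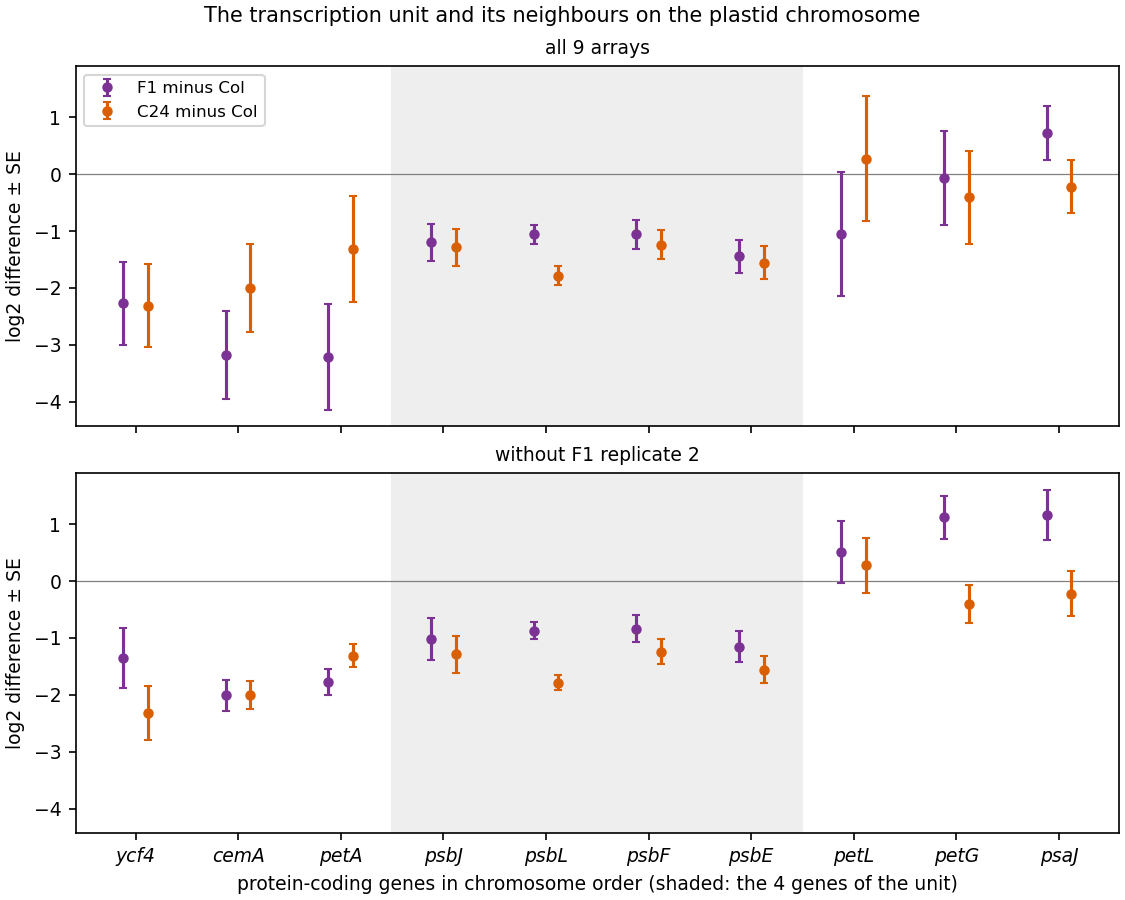
Log2 differences from Col with their SE, for F1 and for C24, of 10 plastid protein-coding genes in chromosome order, with all 9 arrays (top) and without F1 replicate 2 (bottom). petA, cemA and ycf4, on the psbJ side of the shaded unit, lie below 0 with it, and petL, petG and psaJ on the other side do not lie below 0 in both comparisons once F1 replicate 2 is left out.

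The other 11 plastid-encoded photosystem II genes had 0 calls in any comparison with all arrays, where 8.47% of all probe sets were called for C24 minus Col, 0.509% for F1 minus Col and 2.08% for F1 minus C24. In limma 2 of them had an unadjusted p under 0.05 for C24 minus Col and 0 for the comparisons with F1. With all arrays their median log2 difference was -0.87 for C24 minus Col, -0.60 for F1 minus Col and 0.05 for F1 minus C24. Without F1 replicate 2, F1 minus Col ranged from -0.22 ± 0.32 (psbK) to 1.02 ± 0.63 (psbB) in these 11 genes. F1 minus C24 then ranged from 0.006 ± 0.327 (psbZ) to 3.14 ± 0.65 (psbT). psbD, which encodes the reaction centre protein D2 that binds near cytochrome b559 in assembly, had signals of 302.2, 22.0 and 225.9 in F1 and 61.9, 65.9 and 19.6 in C24, against 171.0, 261.2 and 314.7 in Col. It was low in all C24 arrays and in F1 replicate 2, and F1 replicates 1 and 3 were within or near the Col range, unlike psbE. Its difference C24 minus Col was -2.49 ± 0.86 (adjusted p = 0.12), and -2.48 ± 0.44 without F1 replicate 2 (adjusted p = 0.0106).

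psbT, a small subunit gene, also passed without that array (adjusted p = 0.04), with C24 signals of 3.53 to 10.04, under the filter level, against 20.5 to 70.2 in Col. psbA, for the reaction centre protein D1, was at 155.0 ± 78.1 in F1, 191.1 ± 46.5 in C24 and 215.7 ± 47.7 in Col. psbZ was at 1238 ± 292, 1339 ± 236 and 1311 ± 502. psbK, another small subunit gene, was the plastid gene outside the unit with the profile closest to it, named after its values were seen. It had 1579, 952 and 2547 in F1 and 1274, 1726 and 947 in C24, against 2408, 3108 and 1707 in Col, and a difference C24 minus Col of -0.87 ± 0.35 (adjusted p = 0.18).

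**Figure D5:**
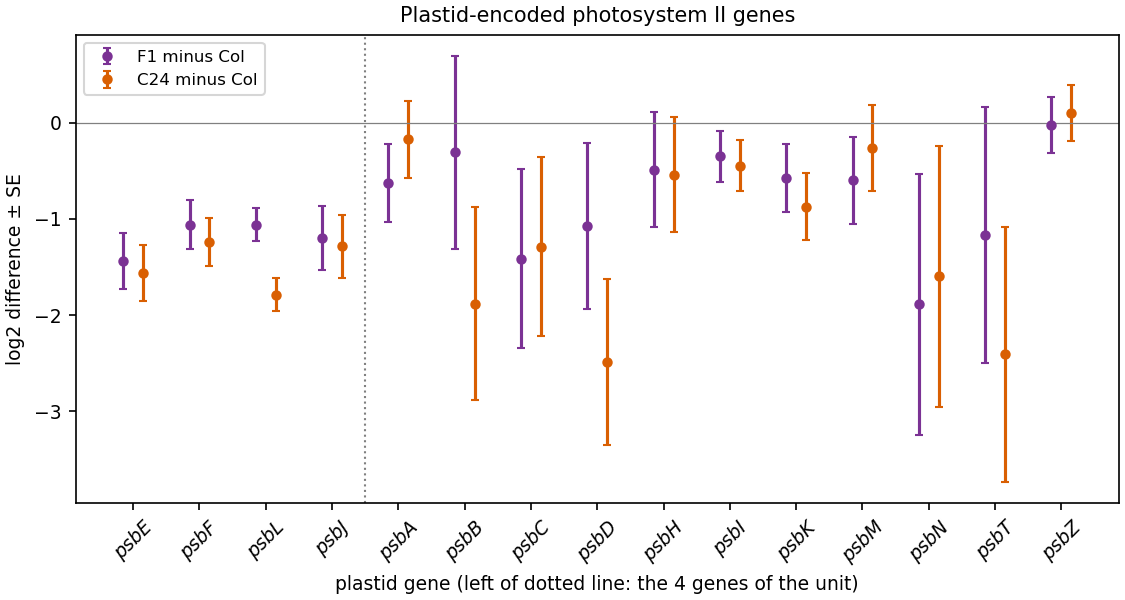
Log2 differences from Col, with their SE over all 9 arrays, of the 15 plastid-encoded photosystem II genes for F1 and for C24. The 4 genes of the unit lie at -1.79 to -1.06 with SE of 0.17 to 0.33, and psbB, psbC, psbD, psbN and psbT have SE of 0.86 to 1.36. The F1 differences and all SE include F1 replicate 2.

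The 8 genes with the profile most like the mean of the 4, by the root mean square difference of centred log2 signals over 9 arrays, were all nuclear. They lay at 0.26 to 0.32, and the median of 8805 compared probe sets was 0.75. The 4 genes make up that mean, and between single pairs of them the difference was 0.21 to 0.44. psbK was in place 22. The closest was AT5G41920 (SCL23, a GRAS family transcription factor gene), with signals of 18.7, 20.8 and 24.5 in F1 and 17.9, 23.2 and 14.5 in C24, against 47.6, 43.6 and 39.5 in Col. AT5G25560 had 245.0, 246.9 and 307.4 in F1 and 164.0, 206.8 and 235.9 in C24, against 479.5, 509.5 and 383.7 in Col. The others were AT5G27930, AT5G22460, AT5G25475, AT5G61330, AT1G31910 and AT1G34340. The choice was not stable, since 3 to 8 of the 8 stayed among the nearest 8 when an array was left out.

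Nuclear genes for photosystem II had small differences between the groups and were not called. Of 26 listed subunit and assembly genes 8 had a named probe set, and 0 passed in limma in any comparison, with 0 at an unadjusted p under 0.05. Their median log2 difference was 0.05 for C24 minus Col, with a range of -0.17 to 0.11. PSBW, a subunit gene, was at 3442 ± 234 in F1, 3693 ± 152 in C24 and 3468 ± 214 in Col. LPA1, an assembly factor gene, was at 258.8 ± 25.2 in F1, 241.9 ± 11.2 in C24 and 228.6 ± 53.7 in Col.

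Of 36 listed plastid transcription and RNA factors 3 had a named probe set, and 0 passed, with 1 at an unadjusted p under 0.05 for C24 minus Col. LPA66, known for editing the psbF transcript, was at 79.2 ± 7.79 in F1, 68.5 ± 17.2 in C24 and 78.5 ± 1.29 in Col. AT3G14330 (CREF3), known for editing the psbE transcript, was at 104.4 ± 31.8 in F1, 101.9 ± 6.59 in C24 and 113.5 ± 11.2 in Col. AT5G15700, which encodes a phage-type RNA polymerase of plastids and mitochondria, was at 30.6 ± 6.26 in F1, 37.1 ± 11.8 in C24 and 20.6 ± 7.26 in Col. Its log2 difference C24 minus Col was 0.87 ± 0.32, the 1 with an unadjusted p under 0.05 (limma adjusted p = 0.139). Of 9 genes of haem synthesis 3 had a named probe set, with 0 calls in limma and 0 at an unadjusted p under 0.05. HEMB1 was at 1324 ± 151 in F1, 1389 ± 48.3 in C24 and 1399 ± 56.5 in Col.

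The markers of green tissue were bright in every array. 4 of the 10 listed had a named probe set (RCA, PRK, PSAN and SBPASE), and their summed signal was 16046 to 17683 in F1, 16952 to 17800 in C24 and 16483 to 17460 in Col, so the groups overlapped. Of 7 root markers 3 had a named probe set, with none at 0, and their sum was 553.1 to 833.9 in F1 and 1033 to 1850 in C24, against 266.8 to 335.8 in Col. This sum was nearly all PYK10, a beta-glucosidase gene, which was higher in C24 than in Col (log2 difference 2.25 ± 0.23, limma adjusted p = 0.000241). For F1 minus Col its log2 difference was 1.22 ± 0.23, with an adjusted p of 0.069 in limma and of 0.0108 with replicate number as a block. EXPA18 and EXPA7, expansin genes of root hairs, averaged 9.60 and 2.32 in C24, against 19.9 and 8.21 in Col, EXPA7 being under the filter level in all groups and EXPA18 not called (adjusted p = 0.122). The part of the root markers in the difference of the 4 genes was not tested.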

How the data were processed

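The authors deposited 1 linear intensity per probe set and array, computed with GCOS according to the submitters' processing notes, of which no version is given here. The mean of each column without 2% of its values at each end was 150.01 to 150.02, so arrays had been scaled alike. After 64 control probe sets were set aside, the arrays were quantile normalized (limma 3.58.1, R 4.3.3), since the medians of log2 signal spanned 0.24, above the limit of 0.2. Values under 1 were raised to 1 before log2 was taken. Probe sets with a mean under the 30th percentile, a signal of 11.1, were left out, which left 15922 of 22746; all 4 members passed. One limma model of the 3 group means on all 9 arrays (variance trend, Benjamini-Hochberg over all tested probe sets, threshold 0.05) gave the differences and their SE. The procedure was tested on simulated data with independent arrays and differences planted in C24. These held no array that stood apart as F1 replicate 2 did, so that test does not cover its effect.

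Genes were named from the platform annotation through Entrez numbers in the TAIR10.1 table, with the brightest probe set of a gene used in lists. Mitochondrial genes, of which none matched, were not used here. Named were the 4 members, the other psb genes, 3 neighbours on each side, genes called in a list, and the 8 nearest profiles. The members and lists were chosen with earlier results of these data known. Same-numbered arrays had a correlation of their deviations over 0.1 in 3 of 3 pairs of C24 with Col and 3 of 3 of F1 with Col, and in 2 of 3 of F1 with C24. Pairs with different numbers reached 0.205, so a limit of 0.1 does not set same-numbered pairs apart. Pairs among the replicate 1 arrays, at 0.455 to 0.494, were above 0.205. Those among the replicate 2 arrays, at 0.013 to 0.148, and among the replicate 3 arrays, at 0.124 to 0.201, were not. The labels give the numbers without saying what they share, and the main fit paired no comparison. Replicate number as a block entered a single model for all 3 comparisons. Alternatives were the scaling, the floor, the filter, the variance trend, replicate number as a block and leaving out arrays.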

Additional observations from a re-analysis of the deposited data

How the results depend on the processing

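The sign of C24 minus Col was among what psbE, psbF, psbL and psbJ were chosen on. Without single arrays their median difference was -1.64 to -1.23, for F1 minus Col it was -1.41 to -0.95 and for F1 minus C24 -0.0873 to 0.41. Relative to the other plastid genes the 3 medians were -0.60, 0.25 (psbF 0.32, psbL 0.32, psbJ 0.18) and 0.71, and without F1 replicate 2 on that scale -0.60, -0.72 and -0.18 (psbE -0.18, psbF -0.18, psbJ -0.32). For F1 minus C24 a common median gave -0.063 for the median (psbE -0.0568, psbF -0.0692, psbJ -0.0752). Without C24 replicate 1 psbJ was at -0.01, without C24 replicate 3 psbE was at -0.10 and psbF at -0.0377, and without F1 replicate 3 psbE, psbF and psbJ were at -0.15, -0.02 and -0.24. Of the fits without single arrays, the highest values were without F1 replicate 2, at 0.41, 0.41 and 0.26.

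Over all probe sets the calls lower in F1 than in C24 were 60, and 100 with a common median. With the filter at the 50th percentile these were 28, those higher in C24 than in Col 377 (567 otherwise) and those higher in F1 than in Col 43 (65 otherwise). Without single arrays, the calls for C24 minus Col were 288 to 549 higher and 485 to 771 lower, for F1 minus Col 30 to 61 and 6 to 20, and for F1 minus C24 145 to 265 and 21 to 75. Of the other plastid genes, no filter left 1 higher and 0 lower for C24 minus Col and 0 higher for F1 minus Col, and the 50th percentile left 1 higher for C24 minus Col. Without single arrays, C24 minus Col gave 0 to 3 higher and 0 to 11 lower, F1 minus Col 0 to 2 higher and 0 to 2 lower, and F1 minus C24 0 to 1 higher. The nuclear photosystem II, plastid RNA and haem lists had 0 calls in all of these in limma.

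Same-numbered arrays had correlations of 0.108 to 0.494 for C24 with Col and F1 with Col and of 0.013 to 0.455 for F1 with C24, against -0.345 to 0.205 for different numbers, and 6 of 9 arrays correlated best with their own number. With a replicate block there were 32 calls lower in F1 than in Col (16 without it) and 97 lower in F1 than in C24. Of the other plastid genes 2 were lower in C24 and 1, cemA, was lower in F1 than in Col (adjusted p = 0.0487). Of the genes named, the block also added calls for rpl14, rps2 and PYK10, the last for F1 minus Col and for F1 minus C24. For F1 minus C24 the limma adjusted p of PYK10 was 0.00925 with the block and 0.0573 without it.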
